A study of Arabidopsis thaliana with 90 samples.

Results

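The TOPLESS family of Arabidopsis thaliana comprises 5 corepressor genes: TOPLESS (TPL, AT1G15750), TOPLESS-RELATED 1 (TPR1, AT1G80490), TPR2 (AT3G16830), TPR3 (AT5G27030) and TPR4 (AT3G15880, listed in the gene table under the symbol WSIP2). They were taken by locus from 27444 nuclear protein-coding genes, and all 5 were found. The family was selected on peaks of these data, since the WDR5A-HA fold of TPR3 is one of the highest and TPR3 also has a BTE1 peak. The WDR5A and BTE1 values below are therefore descriptions, with no test.

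TOPLESS family proteins resemble the Groucho and Tup1 corepressors of animals and yeast. They do not bind DNA themselves: an amino-terminal domain holds short repression motifs of transcription factors and adaptor proteins, and histone deacetylases are brought to the target gene. In this way the family serves the auxin and jasmonate pathways, defence and embryo patterning. The proteins profiled at these genes belong to the chromatin and transcription machinery. WDR5A is a core subunit of the complexes that methylate lysine 4 of histone H3 (H3K4). E2FA is an activator of the E2F class, and DREAM complexes hold E2F proteins in animals and plants. TBP is the TATA-binding protein of the preinitiation complex. RNA polymerase II (Pol II) carries phosphorylated serine 5 (Ser5P) mostly near promoters and phosphorylated serine 2 (Ser2P) mostly during elongation and near the 3′ ends of genes.

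The study profiled Col-0 (wild-type) and mutant seedlings by chromatin immunoprecipitation with sequencing (ChIP-seq). The libraries used here came from Col-0 seedlings aged 9 days, kept in continuous white light. They comprise 10 features with 3 biological replicates each: WDR5A-HA, BTE1, E2FA, trimethylated, dimethylated and monomethylated H3K4 (H3K4me3, H3K4me2, H3K4me1), the histone variant H2A.Z, total Pol II, Ser5P Pol II and Ser2P Pol II. The WDR5A-HA libraries were made with anti-HA beads, and their labels give the genotype as Col-0 without describing the tagged transgene. For TBP there was a single list of regions. Mutant, IgG and input libraries were not analysed here. Whole seedlings were used, so weaker binding in each cell and binding in fewer cells cannot be told apart.

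The values are the authors' peak calls. Each peak has a position, a summit and a fold enrichment, which is the authors' own value for that peak and is used here to describe and rank peaks within a feature. Read depth is unknown from peak lists. The libraries held between 1395 peaks in 1 BTE1 library and 27063 peaks in 1 H2A.Z library. The E2FA libraries varied most relative to their size, with 4549, 3592 and 5852 peaks. A gene counted as called for a feature when, in all 3 libraries, a peak overlapped the gene or the 500 bp on either side of it by at least 1 bp.

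The family was called for nearly all features, but the 5 genes did not carry the same set. All 5 were called for WDR5A-HA, against 51.8% of all genes. H3K4me3, H3K4me2, H3K4me1 and H2A.Z were likewise called at all 5, against 64.1%, 63.7%, 38.3% and 80.2% of all genes. Most long genes carried these 4 features in the gene body in all 3 libraries. Of the 760 genes at least as long as the shortest member, 676, 656, 676 and 719 did, in the same order. Total Pol II and Ser5P Pol II were called at all 5 genes, against 46.7% and 45.9% of all genes, and the TBP list held regions at all 5, against 57.7% of all genes. BTE1 was called at TPR3 alone, against 5.33% of all genes. E2FA was called at 0 of the 5, against 8.95% of all genes. Ser2P Pol II was called at TPL, TPR1, TPR2 and TPR4, against 47.6% of all genes. TPR3 lacked a Ser2P peak in replicate 1 alone. It was called, giving 5 of 5, with at least 2 of 3 libraries, with the authors' lists for the whole series and without replicate 1.

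TPL, TPR1, TPR2 and TPR4 therefore shared 1 combination of calls over the 11 features, TBP included, and 3995 genes (14.6%) carried that combination. TPR3 carried a combination found at 5 genes in all (0.0182%), with WDR5A-HA and BTE1, which entered the choice of genes, among its calls. The combination needs TPR3 to lack Ser2P, so TPR3 does not hold it under the 3 settings that add that call. The other 4 were TRFL3, CAD1, SPPL1 and AT5G63340, named here after their calls were seen. Of the 1462 genes called for BTE1, 896 were also called for WDR5A-HA, and 228 of those (25.4%) lacked an E2FA call, as TPR3 did. Adding Ser5P Pol II without Ser2P Pol II left 25 genes (0.0911% of all genes), TPR3 among them. Among all genes called for Ser5P Pol II, 11.3% had no Ser2P call.

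**Figure D1:**
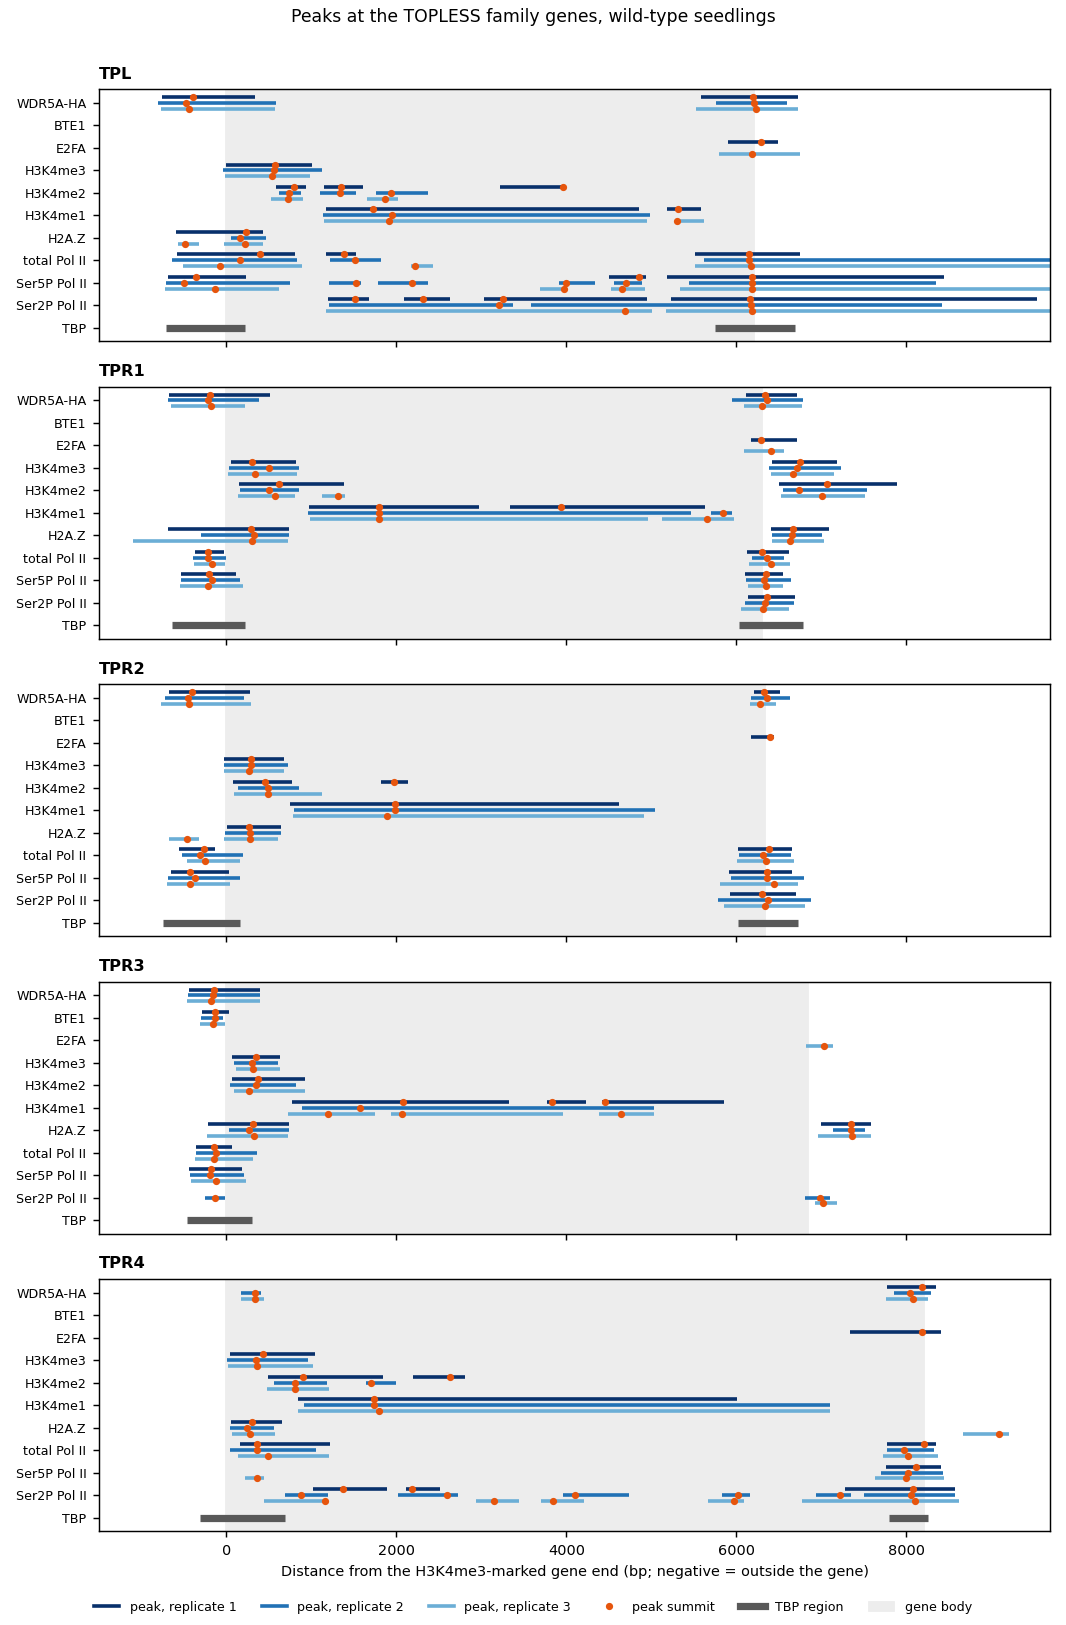
Peaks at TPL, TPR1, TPR2, TPR3 and TPR4 in wild-type seedlings, by distance in bp from the H3K4me3-marked gene end (negative values lie outside the gene). Blue lines are peaks, 1 line per library and 3 libraries per feature, orange dots are summits, grey bars are TBP regions and the shaded area is the gene. Peaks that run past the right-hand edge are cut there. WDR5A-HA, total Pol II, Ser5P Pol II and TBP lie at both ends of TPL, TPR1 and TPR2, and at 1 end of TPR3.

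The 5 genes are long and peaks gathered at their 2 ends, so each end was described separately. The gene table carries no strand. The end next to the H3K4me3 summit is called the marked end, and the other the opposite end. In Arabidopsis H3K4me3 and H2A.Z are usually found just inside the start of genes. H2A.Z placed the marked end at the same side as H3K4me3 in all 5 genes, and in 99.1% of the 12103 genes where both gave a side. H3K4me3 gave a side for 13559 genes. A feature was called at an end when, in all 3 libraries, a peak had its summit in the outer 25% of the gene or up to 500 bp outside it. H3K4me3 fixed which end is which, so its presence at the marked end is not a result. The map of peaks shows this division.

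At the marked end WDR5A-HA was called at TPL, TPR1, TPR2 and TPR3, against 48.7% of the oriented genes. TPR3 had folds of 9.04, 8.07 and 8.86 (8.66 ± 0.514, SD, n = 3). It ranked 7th of 17805, 9th of 16672 and 9th of 17878 peaks by fold, where the median peak had folds of 2.36, 2.42 and 2.40. TPR3 stood 2nd of the 13559 oriented genes by mean fold at this end.

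The peaks of TPR1 and TPL were the next strongest. TPR1 had WDR5A-HA folds of 6.20, 7.17 and 7.22 (6.86 ± 0.580, n = 3), and TPL had 6.63, 6.35 and 7.10 (6.69 ± 0.379, n = 3). The ranges of these 2 genes overlapped, while TPR3 lay above both in all 3 libraries. TPR2 had folds of 5.65, 5.12 and 5.66 (5.48 ± 0.308, n = 3), below the range of TPL. By mean fold TPR1, TPL and TPR2 ranked 16th, 21st and 81st of the oriented genes, so that 4 of the 136 genes in the top 1% belonged to the family.

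TPR4 differed from the other 4. It had a WDR5A-HA peak at the marked end in 2 of 3 libraries, with folds of 1.95 and 2.07, both under the median peak of their library. Its window call rested on the opposite end, where the 3 folds were 1.83, 1.97 and 2.11 (1.97 ± 0.141, n = 3).

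The summits of these WDR5A-HA peaks lay outside the gene. They were 152, 159 and 181 bp outside the marked end of TPR3. At TPR1 they lay 194, 215 and 180 bp outside it. At TPR2 the distances were 403, 455 and 443 bp, and at TPL 399, 474 and 446 bp. Among the 6597 oriented genes called for WDR5A-HA at the marked end, the median summit lay 118 bp inside the gene, and 20.3% of genes had it outside in all 3 libraries. TPR4, with its weaker peak, had summits 337 and 339 bp inside. The peaks of TPR3 together spanned 9515165 to 9516025 on chromosome 5 (TAIR10, as in the peak files). Those of TPL spanned 5420445 to 5421841 on chromosome 1.

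The BTE1 peak of TPR3 stood at the same place and was weak for a BTE1 peak. BTE1 was called at the marked end of 4.99% of the oriented genes and at the opposite end, where no family member had it, of 1.14%. The TPR3 peak had folds of 2.03, 2.47 and 1.97 (2.15 ± 0.271, n = 3), against median BTE1 folds of 3.55, 4.37 and 3.21 in the same libraries. It ranked 1718th of 1743, 1364th of 1395 and 1914th of 1978 peaks by fold, so it lay among the lowest in each library. By the peak score, which the authors' caller takes from the q-value, it ranked 968th, 692nd and 951st, near the middle. The 3 peaks together spanned 9515530 to 9515874 on chromosome 5.

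BTE1 and WDR5A-HA summits at TPR3 were 14, 21 and 23 bp apart. Over the 311 genes with both at the marked end the median distance was 143 bp, and 2.89% of them had a mean distance as short as that of TPR3. The BTE1 summits also lay 10, 9 and 10 bp from those of total Pol II and 48, 57 and 31 bp from those of Ser5P Pol II. Their distance from the H3K4me3 summits was 487, 444 and 467 bp. BTE1, WDR5A-HA and Pol II thus shared a position outside the gene, and H3K4me3 had its own inside it. Whether the strength of the other signals at this position bears on the weak BTE1 peak was not tested.

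**Figure D2:**
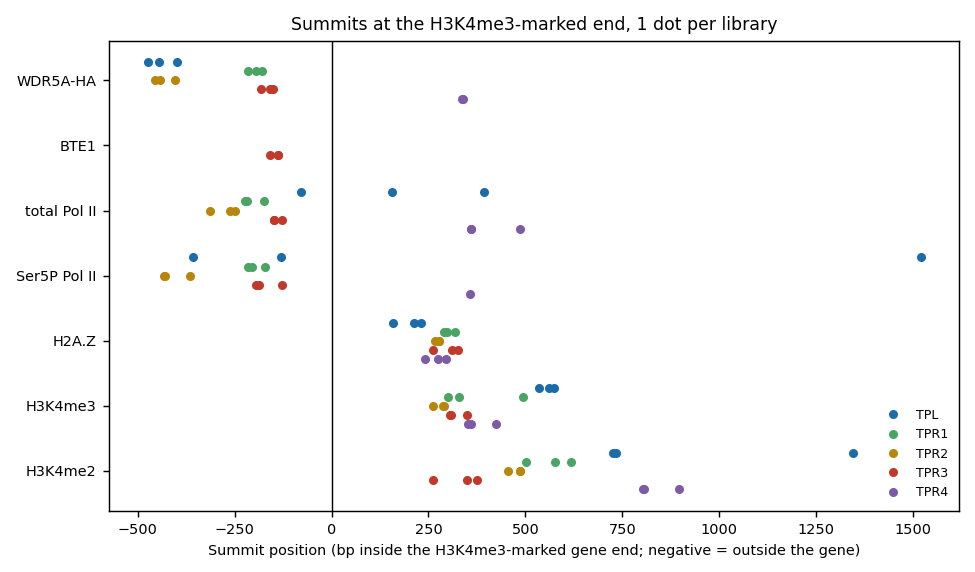
Position of each peak summit at the H3K4me3-marked end of the 5 genes, in bp inside the gene (negative values lie outside), with 1 dot per library and a colour per gene. WDR5A-HA, total Pol II and Ser5P Pol II summits lie left of the line at TPR1, TPR2 and TPR3, while H2A.Z and H3K4me3 summits lie right of it in all 5 genes.

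Pol II at the marked end was likewise strongest at TPR3. Total Pol II was called there at all 5 genes, against 15.9% of the oriented genes. TPR3 had folds of 5.56, 4.22 and 6.17 (5.32 ± 0.999, n = 3). The other 4 genes had mean folds from 2.41 (TPR2) to 2.93 (TPR1 and TPR4), their ranges overlapped between neighbours in that order, and TPR3 lay above them in every library.

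Ser5P Pol II, the form usual near promoters, was called at the marked end of TPL, TPR1, TPR2 and TPR3, against 19.9% of the oriented genes. TPR3 had folds of 8.53, 8.49 and 8.80 (8.61 ± 0.167, n = 3), at a mean percentile of 99.9 among the oriented genes. TPR1 followed with 5.46, 5.47 and 5.36 (5.43 ± 0.0627, n = 3), and TPR2 with 4.59, 4.17 and 5.17 (4.64 ± 0.501, n = 3). TPL had 5.37, 2.17 and 5.31. Its value in replicate 2 comes from a minor peak inside the gene, because the main peak there, with a fold of 5.13, had its summit 501 bp outside, just past the 500 bp limit. TPR4 had a Ser5P peak at this end in 1 library, with a fold of 2.03.

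The order of the genes by Ser5P Pol II thus put TPR3 first, as for WDR5A-HA, and TPR4 last. At TPR3, TPR1 and TPR2 the 2 features also lay close in position. WDR5A-HA and Ser5P summits were 34, 36 and 54 bp apart at TPR3, 12, 43 and 35 bp apart at TPR1, and 27, 90 and 10 bp apart at TPR2. The median over the 2336 genes with both at the marked end was 77.7 bp. At TPL the distances were 41 and 316 bp in replicates 1 and 3.

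Ser2P Pol II was called at the marked end of TPR4 alone, against 11% of the oriented genes. Its folds there were 2.12, 1.95 and 1.81 (1.96 ± 0.156, n = 3). TPR3 had a Ser2P peak at this end in replicate 2, with a fold of 2.51. It had no Ser2P peak there in the other 2 libraries.

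TBP regions lay at the marked end of all 5 genes, against 37% of the oriented genes. The region at TPR3 spanned 9515268 to 9516026 on chromosome 5 and overlapped the WDR5A-HA, BTE1 and Pol II peaks. Regions at the other 4 genes also reached from outside the gene into it. The TBP list was a single list, so its regions have no replicate.

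**Figure D3:**
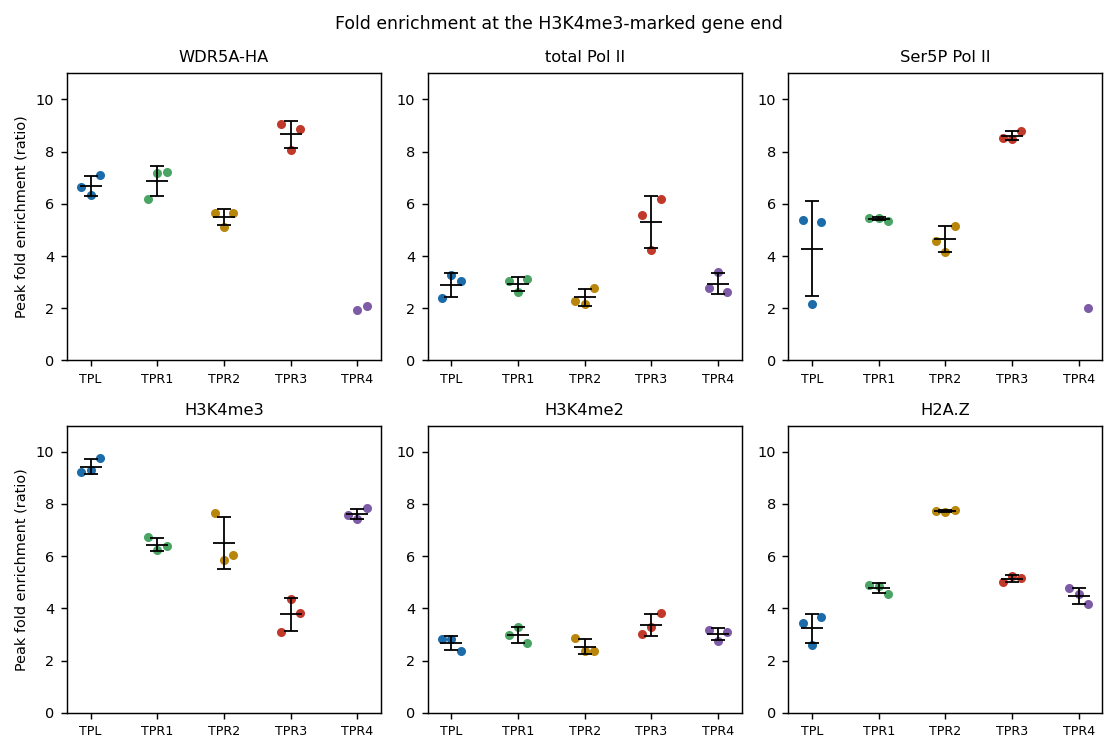
Fold enrichment of the strongest peak at the H3K4me3-marked end of each gene, for 6 features, with 1 dot per library, and the mean with its SD (n = 3) where all 3 libraries had a peak. TPR3 is highest for WDR5A-HA, total Pol II and Ser5P Pol II and lowest for H3K4me3, while TPR2 is highest for H2A.Z.

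The histone marks did not follow WDR5A-HA across the family. For H3K4me3, the mark of active gene starts, TPL had folds of 9.21, 9.30 and 9.76 (9.42 ± 0.295, n = 3), above every other gene of the family. TPR4, with little WDR5A-HA, came second by mean fold with 7.56, 7.43 and 7.83 (7.60 ± 0.202, n = 3). TPR2 had 6.51 ± 0.999 and TPR1 6.44 ± 0.254 (SD, n = 3 each), and their ranges overlapped. The range of TPR2 also overlapped that of TPR4.

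TPR3, with the strongest WDR5A-HA peak, had the lowest H3K4me3. Its folds were 3.11, 4.37 and 3.83 (3.77 ± 0.631, n = 3), at a mean percentile of 19.1 among the oriented genes and below the other 4 genes in every library. Of the 136 genes in the top 1% for WDR5A-HA, 31 (22.8%) had a mean H3K4me3 fold no higher than that of TPR3, and the median H3K4me3 percentile over the 136 genes was 56.0. A low H3K4me3 fold beside a very strong WDR5A-HA peak was thus not particular to TPR3.

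H2A.Z, a histone variant placed at the first nucleosomes of genes, gave another order. It was called at the marked end of all 5 genes, against 83.3% of the oriented genes. TPR2 had folds of 7.73, 7.67 and 7.77 (7.72 ± 0.0492, n = 3), at a mean percentile of 97.9. TPR3 had 4.99, 5.25 and 5.17 (5.14 ± 0.133, n = 3), and TPR1 and TPR4 had 4.77 ± 0.194 and 4.49 ± 0.308 (n = 3 each), with overlapping ranges. TPL, the gene with the most H3K4me3, had the least H2A.Z, with 3.44, 2.61 and 3.68 (3.24 ± 0.560, n = 3).

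H3K4me2 differed less between the genes than H3K4me3 or H2A.Z did. It was called at the marked end of all 5 genes, against 46.7% of all oriented genes and 89.5% of the 630 oriented genes at least as long as the shortest member. No member was called for it at the opposite end, against 4.41% of the oriented genes, and TPR1 had a summit there in replicate 2 alone. Mean folds ran from 2.52 at TPR2 to 3.37 at TPR3, and the ranges of neighbours in the order overlapped throughout, although those of TPR3 and TPR2 did not overlap.

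H3K4me1, a mark of transcribed gene bodies in plants, covered most of each gene. Its summits lay away from the ends. It was called at the marked end of TPR4 alone, with folds of 4.27, 3.14 and 2.51, against 3.19% of the oriented genes and 43.7% of the long ones. At the opposite end it was called at 0 of 5, against 2.01%. An end is a fixed share of gene length, so it reaches deepest in TPR4, the longest member. The strongest H3K4me1 summits of TPR4 lay at a mean of 1758 bp from the marked end. The means were 1618 bp at TPR3, 1797 bp at TPR1, 1865 bp at TPL and 1954 bp at TPR2. TPR3 had H3K4me1 summits at the marked end in 2 of 3 libraries. H3K4me1 peaks took up 73.5 ± 4.49% of TPR1, 71.5 ± 7.47% of TPR4 and 64.8 ± 2.50% of TPL. They took up 64.5 ± 3.08% of TPR2 and 59.8 ± 5.63% of TPR3 (SD, n = 3 each). The median over the 676 genes with H3K4me1 and at least as long as the shortest member was 69.1%. All 5 genes lay between the quartiles of 58.1% and 75.2%, so that H3K4me1 spread was that of other long genes. H3K4me3 covered from 7.87 ± 0.387% of TPR3 to 16.7 ± 1.29% of TPL, against a median of 9.99% in long genes.

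The strongest H3K4me1 summit lay deeper in the gene than that of H3K4me3. At TPR3 the H3K4me1 summits were 2080, 1575 and 1199 bp from the marked end, against 349, 306 and 309 bp for H3K4me3. The difference in mean position was 1297 bp at TPR3, 1308 bp at TPL, 1379 bp at TPR4 and 1675 bp at TPR2. Each of the 4 had an exact permutation p of 0.10 (two-sided, 3 libraries against 3), the smallest this design allows, with an adjusted p of 0.18 over 9 position tests. At TPR1 the sign was turned, at −2764 bp, because the strongest H3K4me3 peak in 2 libraries lay past the opposite end, at the neighbouring gene PTAC17. Within the gene body alone TPR1 had a difference of 1422 bp.

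Pol II was called at the opposite end of each member except TPR3. Total Pol II was called there at TPL, TPR1, TPR2 and TPR4, against 50.8% of the oriented genes, and Ser5P Pol II at the same 4, against 50.6%. Ser2P Pol II was also called at those 4, against 57.5% of the oriented genes and 74.6% of the long ones. Of the long genes, 57.3% were called there for total Pol II and 70.6% for Ser5P, so many lacked a call, as TPR3 did. TPR3 was the only member without a Pol II call at this end, though it had Ser2P peaks there in replicates 2 and 3.

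TPL had the highest Pol II folds at this end, in peaks that run on into the overlapping gene AT1G15740. Its Ser2P folds were 12.4, 12.2 and 11.2 (11.9 ± 0.644, n = 3), its total Pol II folds 11.2, 9.96 and 10.1 (10.4 ± 0.710, n = 3) and its Ser5P folds 9.29, 10.2 and 10.2 (9.88 ± 0.513, n = 3). These lay at mean percentiles of 99.7, 98.8 and 99.7 among the oriented genes, and no other member overlapped them. The same peaks reached from 533 to 4048 bp beyond the end of TPL for total Pol II, from 2142 to 4203 bp for Ser5P and from 2205 to 3739 bp for Ser2P, so the share of this signal that belongs to TPL cannot be told apart. Ser2P peaks also covered 73.0 ± 8.64% of TPL, against a median of 5.95% over long genes with Ser2P in the body.

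TPR2, TPR4 and TPR1 had intermediate Ser2P folds at the opposite end, at 6.53 ± 0.737, 5.87 ± 0.555 and 4.17 ± 0.396 (SD, n = 3 each). Ranges of TPR2 and TPR4 overlapped, and TPR1 lay below both. Ser2P peaks covered 37.7 ± 9.43% of TPR4 but only 7.53 ± 1.09% of TPR2 and 3.23 ± 0.658% of TPR1. TPL and TPR4 therefore had Ser2P Pol II over the body, and TPR1 and TPR2 had it at the end.

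The strongest Ser2P and Ser5P peaks stood together in some members and apart in others. At TPR1 the Ser2P summits lay 6361, 6342 and 6315 bp from the marked end and the Ser5P summits 206, 172 and 215 bp outside it. This was a difference of 6537 bp (unpaired exact permutation p = 0.10, the smallest possible for 3 against 3, adjusted p = 0.18). Same-numbered Ser2P and Ser5P libraries are paired, and the tests in this paragraph leave the pairing out. An exact sign-flip test on 3 pairs cannot give a p below 0.25. At TPL and TPR4 both summits lay at the opposite end, with differences of −10.0 and 39.0 bp (exact permutation p = 0.40, adjusted p = 0.45 for each). TPR2 had a difference of 2243 bp (exact permutation p = 0.80), which came from replicate 3, where its strongest Ser5P peak was at the marked end. Without replicate 3 the difference was −19.5 bp.

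TPR3 had no peak of total Pol II or Ser5P Pol II at its opposite end in any library. Ser2P peaks were present there in replicates 2 and 3, with folds of 1.75 and 2.08, and in replicate 1 there was none. Ser2P peaks covered 0.180 ± 0.312% of its body (n = 3). Among the 136 genes in the top 1% for WDR5A-HA at the marked end, 88.2% were called for Ser2P in the window and 74.3% at the opposite end. TPR3 had neither call in all 3 libraries.

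**Figure D4:**
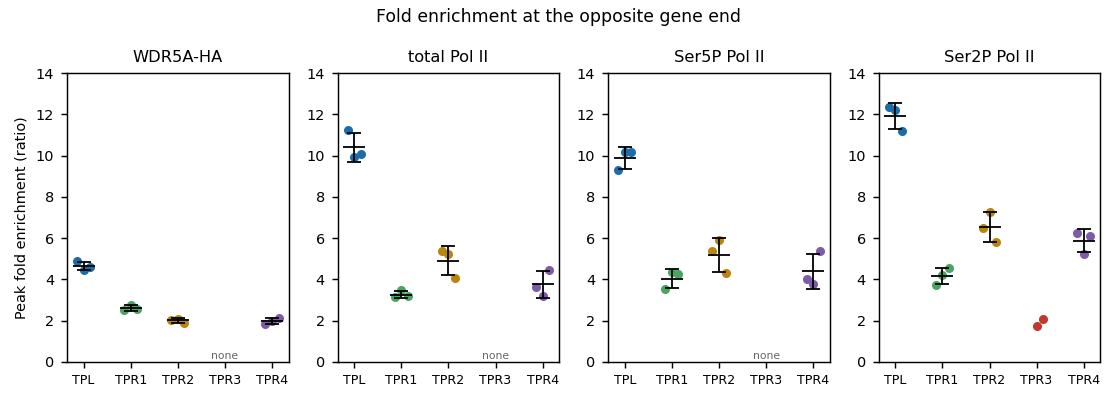
Fold enrichment of the strongest peak at the opposite end of each gene for WDR5A-HA and 3 forms of Pol II, with 1 dot per library, and the mean with its SD (n = 3) where all 3 libraries had a peak; "none" marks a gene with no peak there. TPL is highest in all 4 panels, and TPR3 has 2 Ser2P peaks and nothing else.

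WDR5A-HA was also present at the opposite end of the same 4 genes, against 32.2% of the oriented genes, and 17.9% of oriented genes had it at both ends. TPL had folds of 4.88, 4.46 and 4.62 (4.65 ± 0.212, n = 3) and TPR1 2.50, 2.75 and 2.55 (2.60 ± 0.131, n = 3). TPR2 and TPR4, at 2.00 ± 0.102 and 1.97 ± 0.141 (n = 3 each), could not be separated. The order of WDR5A-HA at this end, with TPL above TPR1 and TPR1 above TPR2, was not that at the marked end. TBP regions lay at the opposite end of TPL, TPR1, TPR2 and TPR4 as well, against 52.8% of the oriented genes.

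E2FA peaks appeared in 1 or 2 libraries at each of the 5 genes, and at the opposite end each time. TPL had folds of 1.62 and 1.62 and TPR1 of 2.99 and 1.72 in replicates 1 and 3. TPR2 and TPR4 had 1.68 and 2.21 in replicate 1, and TPR3 had 1.96 in replicate 3. None of the 5 had an E2FA peak in replicate 2, the library with the fewest E2FA peaks, so the call at this end was made at 0 of 5, against 2.64% of the oriented genes. At the marked end, where TPR3 carried BTE1, E2FA had no peak in any library of the 5 genes, against calls at 7.27% of the oriented genes.

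Other genes lie close to these opposite ends. AT1G15740 overlaps TPL by 103 bp and turns its own opposite end towards it, so that both genes have their H3K4me3-poor end there. AT3G16840 lies 31 bp from TPR2 in the same arrangement. PTAC17, a gene for a protein found with the plastid transcription machinery, lies 85 bp from TPR1 and turns its marked end towards it. The H3K4me3 and H2A.Z calls past the opposite end of TPR1, with folds of 7.02 ± 0.269 and 7.59 ± 0.388 (n = 3 each), stand at that gene. TPR1 was the only member with either call at this end, against 10.8% and 15.3% of the oriented genes. AT3G15870 overlaps TPR4 by 464 bp and AT5G27020 overlaps TPR3 by 161 bp, and neither had a side by H3K4me3.

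WDR5A-HA peaks at the opposite ends of TPL, TPR1, TPR2 and TPR4 touched the neighbouring gene in all 3 libraries, as did all the E2FA peaks. The strongest total Pol II, Ser5P and Ser2P peaks at these 4 ends also touched that gene in all 3 libraries. Which gene of a pair a signal belongs to cannot be told apart from peak positions. At the marked ends of TPR3, TPL and TPR2 the nearest neighbours are non-coding. A long non-coding RNA gene, AT5G04345, overlaps TPR3 by 154 bp, and the BTE1 and WDR5A-HA peaks of TPR3 lie over it too in all 3 libraries. At TPL and TPR2 the WDR5A-HA peaks touched the long non-coding genes AT1G05197 and AT3G03375, which lie 154 and 250 bp away. The shortest gap between a marked end and a protein-coding gene was 1954 bp, at TPR4.

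Close relatives within the family were set against each other on the features that the choice of genes did not use, with the strongest peak in the window of each library. TPR3 and TPR2 form one pair of near relatives, TPL and TPR1 another. Over 13 tests an exact sign-flip test with 3 libraries cannot give a p below 0.25 (two-sided), so none could pass 0.05, and adjusted p-values ran from 0.325 to 1.

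TPR3 was above TPR2 for Ser5P Pol II in 3 of 3 libraries, with 8.61 ± 0.167 at TPR3 and 5.48 ± 0.378 at TPR2, a difference of 3.13 ± 0.521 (exact sign-flip p = 0.25, adjusted p = 0.325). H3K4me3 was lower at TPR3 than at TPR2 in all 3 libraries, with a difference of −2.74 ± 1.61, and so was H2A.Z, with a difference of −2.59 ± 0.161. H3K4me2 went the other way, higher at TPR3 in 3 of 3 libraries by 0.844 ± 0.655. Each of these had an exact sign-flip p of 0.25 (adjusted p = 0.325). Total Pol II in the window was higher at TPR3 in 2 of 3 libraries, with a difference of 0.417 ± 1.57. At the marked end alone that difference was 2.90 ± 0.753, with TPR3 higher in 3 of 3, since the strongest peak of TPR2 lay at its other end.

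TPL was above TPR1 for Ser2P Pol II in 3 of 3 libraries, with 11.9 ± 0.644 at TPL and 4.17 ± 0.396 at TPR1, a difference of 7.75 ± 1.00 (exact sign-flip p = 0.25, adjusted p = 0.325). Total Pol II differed by 7.16 ± 0.845 and Ser5P by 4.46 ± 0.545 in the same direction. At the marked end alone the total Pol II difference was −0.0337 ± 0.665, with TPL higher in 1 of 3 libraries. The Ser5P difference there was −1.14 ± 1.87 and rested on replicate 2, where the main TPL peak fell just past the limit. Without replicate 2 it was −0.0661. H3K4me3 was higher at TPL by 2.40 ± 0.226, where the TPR1 value is read at PTAC17 in replicates 2 and 3. At the marked end alone the H3K4me3 difference was 2.98 ± 0.456. H2A.Z was lower at TPL, with a difference of −4.35 ± 0.663, where the TPR1 value is read at PTAC17. At the marked end alone the H2A.Z difference was −1.53 ± 0.688, again with TPL lower in 3 of 3 libraries. H3K4me2 was also lower at TPL in 3 of 3, with a window difference of −0.620 ± 0.0442 (exact sign-flip p = 0.25, adjusted p = 0.325). Its TPR1 value is likewise read at PTAC17, in all 3 libraries. At the marked end alone the H3K4me2 difference was −0.302 ± 0.155, with TPL lower in 3 of 3 libraries.

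The genome-wide standing of each gene was compared by its percentile in the libraries, with a gene lacking a peak set to 0. The mean absolute difference in percentile between 2 genes measures their likeness. Over all 30 libraries this measure includes the WDR5A-HA and BTE1 libraries on which the family was selected, and a BTE1 peak alone sets TPR3 apart from genes without one. It was therefore also taken over the 24 other libraries, an addition made after seeing the data.

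Within the family the order depended on that choice. Over 24 libraries TPR2 and TPR4 were the most alike, at 12.1 points, and TPL and TPR3 the least, at 28.8 points. Over 30 libraries the closest pair was TPR1 and TPR2, at 11.8 points, and the farthest TPR3 and TPR4, at 34.2 points. For TPR3 the nearest member was TPR1 either way, at 20.5 points over 24 libraries and 25.6 points over 30. Ranked among all genes over 30 libraries, TPR2 stood 146th in likeness to TPR1, and TPR1 stood 140th in likeness to TPR2. The members nearest to TPL, TPR3 and TPR4 ranked 1439th, 630th and 1569th. These ranks include the libraries on which the family was selected. Over the 24 other libraries TPR2 stood 729th in likeness to TPR1, and TPR1 stood 509th in likeness to TPR2. The members nearest to TPL, TPR3 and TPR4 then ranked 1538th, 926th and 427th.

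Genes outside the family were nearer to each member, where the whole genome is set against the few other members. Over 30 libraries those most like TPL were LOS2, CNX1 and CESA1, an enolase, a calnexin and a cellulose synthase subunit, at 4.81, 5.34 and 5.79 points. TPR1 was nearest to PTAC17 (5.24 points), its own neighbour with shared peaks, then to AT1G48490 and ALDH7B4 at 5.34 and 7.57 points. TPR2 was nearest to ISA1, an isoamylase, AT4G36210 and AT4G36195, at 4.97, 6.13 and 6.19 points. For TPR4 the nearest were PTAC12, AT5G49950 and AIM1, at 6.68, 6.78 and 6.87 points. For TPR3 they were UGP2, a UDP-glucose pyrophosphorylase, SEC1B and AT5G62710, at 11.5, 12.2 and 15.5 points, distances that include the BTE1 libraries.

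Over the 24 libraries LOS2, PTAC17 and ISA1 remained the nearest genes to TPL, TPR1 and TPR2, at 5.08, 2.98 and 5.74 points. The nearest to TPR4 was UNE6 at 5.46 points. The nearest to TPR3 was GI (GIGANTEA), a gene of the circadian clock and flowering pathway, at 9.56 points.

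The genes for proteins that work with TOPLESS were examined in 4 lists. None of the 42 genes was called for BTE1, against 5.33% of all genes, a share at which few calls would fall in lists this short. The only such call in the family and these lists, at TPR3, entered the choice of the family. The listed gene MSI1 had a BTE1 peak in replicate 2 alone, with a fold of 2.95. WDR5A-HA was called at 5 of 6 other corepressors and adaptors, 8 of 12 genes for histone deacetylase complexes, 9 of 13 jasmonate repressors and 8 of 11 other repressors that recruit TOPLESS, against 51.8% of all genes. E2FA was called at 2 of the 12 histone deacetylase complex genes, HDC1 and MSI1, and at none in the other lists, against 8.95% of all genes. MSI1, a subunit of several chromatin complexes, had E2FA folds of 7.49, 5.30 and 10.1, and HDC1 had 1.66, 1.99 and 1.91.

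The lists overlapped in WDR5A-HA strength, and the 2 genes of highest percentile in each are given here. The strongest in the jasmonate list were JAZ6, with a fold of 5.67 ± 0.167, and JAZ2, with 5.44 ± 0.430, both repressors that are degraded when jasmonate is perceived. Among the other repressors AFP3 had 6.20 ± 0.557, near the TPL value, and TMAC2 had 4.42 ± 0.248. In the deacetylase list the strongest was SNL3, a SIN3-like scaffold, with 2.73 ± 0.206, followed by its relative SNL5 with 2.49 ± 0.136. In the corepressor list SLK2, a SEUSS-like adaptor, had 4.64 ± 0.123 and SEU itself 3.23 ± 0.0543 (SD, n = 3 each). No listed partner reached the WDR5A-HA fold of TPR3, but that fold entered the choice of the family, so this is a description alone.

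**Figure D5:**
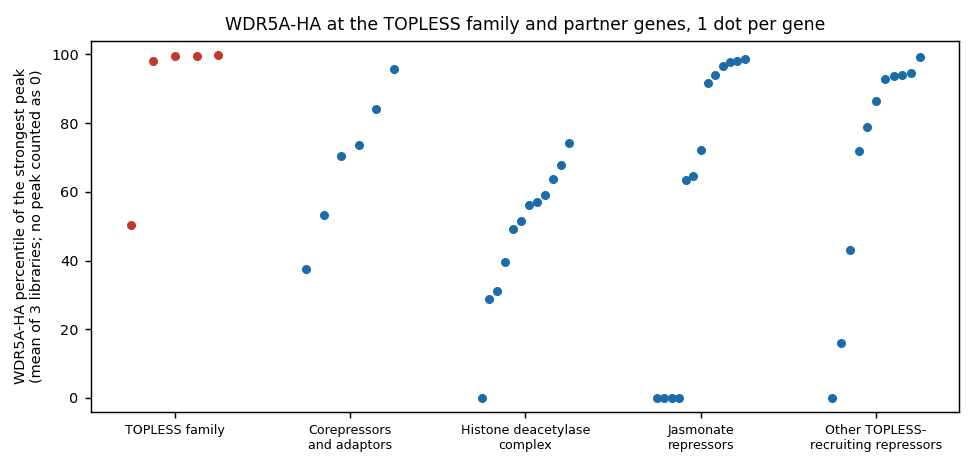
WDR5A-HA percentile of the strongest peak in each gene's window among all genes (mean of 3 libraries), with 1 dot per gene for the 5 TOPLESS family genes (red) and 4 lists of partners (blue). In the family 4 genes lie close to the top and TPR4 near the middle, and the histone deacetylase complex genes reach no higher than 74.2.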

How the data were processed

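ChIP-seq peaks of wild-type seedlings were taken as the authors deposited them, in 30 lists for 10 features with 3 replicates each. Per the submitters' processing notes, the tools included fastp, Bowtie2 2.3.3 and MACS2 2.2.5, with the TAIR10 genome. The caller's control library was not given in the sources used here. For each peak, the deposited lists give its positions, a fold enrichment ratio, a whole-number score and −log10 p and q values. Lists for the whole series, deposited as positions alone, served for TBP and as an alternative for the other features. Sampling depth is not given, so no counting interval applies.

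Peaks were joined to a gene table of assembly TAIR10.1, whose coordinates are not printed and which has no strand. Of 15948 H3K4me3 summits of replicate 1, 99.1% fell in genes. For each gene and library the overlapping peak of highest fold was kept, and percentiles run over all genes, with 0 for none. The join was tested on simulated data. No 2 libraries held the same list: at most 0.0314% of peaks had identical bounds. Scripts used Python 3.11.15, numpy 2.4.6 and pandas 2.3.3.

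Tests were exact, two-sided and adjusted by Benjamini-Hochberg. The p-values measure only the spread between the 3 replicates. Sister genes were compared within a library, and features at one gene between libraries. For Ser2P and Ser5P the replicate numbers pair the libraries: same-numbered libraries deviated together over genes, with correlations of 0.487 to 0.514. The position tests of Ser2P against Ser5P did not use this pairing.

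The members and lists were chosen with earlier results of these data known, and the description by gene end was chosen after seeing the data. Named genes are the 5 members, the neighbours touched by a shared WDR5A-HA, BTE1 or E2FA peak, the 3 genes most like each member, and, from each partner list, the genes called for BTE1 or E2FA and the 2 with the highest WDR5A-HA percentile. PTAC17 fits both of the middle rules. A motif search in promoters was not run, as no sequence was used here.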

Additional observations from a re-analysis of the deposited data

How the results depend on the processing

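Calls of WDR5A-HA, total Pol II and Ser5P Pol II in the window stayed within 1.5 times under every alternative run. WDR5A-HA fell to 4 members, without TPR4, with peaks above the median score of their library (29.2% of all genes). It fell to the same 4 with peaks of −log10 q of at least 5 (40.8% of all genes). BTE1 went to 0 members with the gene body alone, where 3.97% of all genes were called. It also did so with peaks above the median score of their library (3.16% of all genes). At the opposite end it was called at 0 members, against 1.14% of the oriented genes. Leaving out a replicate kept BTE1 at 1 member. With at least 2 of 3 libraries E2FA was called at 2 members (TPL and TPR1), where 17.92% of all genes were called. The same 2 members were called with the authors' lists for the whole series (16.17% of all genes) and without replicate 2 (15.01%). In the main calls the E2FA share was 8.95% of all genes. Leaving out a replicate gave 0 to 2 members for E2FA. Ser2P Pol II was called at 5 members, TPR3 added, with at least 2 of 3 libraries, with the authors' lists and without replicate 1. Leaving out a replicate gave Ser2P shares of 48.1% to 52.1% of all genes, against 47.6% in the main calls. Above the median score H3K4me3 was called at 3 members and H3K4me2 at 2, while their shares of all genes fell to 31.05% and 29.6%. At the opposite end H3K4me3 and H2A.Z were each called at 1 member, against 10.8% and 15.3% of the oriented genes. H3K4me2 and H3K4me1 were called there at 0, against 4.41% and 2.01%. At the marked end H3K4me1 and Ser2P Pol II were called at 1 each, against 3.19% and 11%. Why these counts moved was not tested.

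Some differences between sister genes turned. TPR3 minus TPR2 for H3K4me1 was 0.106 without replicate 2 (range −0.803 to 0.106), and for total Pol II −0.417 without replicate 3 (range −0.417 to 1.14). TPL minus TPR1 for H3K4me1 was −0.0103 on the log2 scale, −4.49 percentile points, and −0.486 without replicate 2 (range −0.486 to 0.332). For total Pol II and Ser5P Pol II at the marked end it was −0.0337 and −1.14, and the Ser5P value rested on replicate 2 (−0.0661 without it). The position difference of H3K4me1 and H3K4me3 at TPR1 was 1422 bp within the gene body. That of Ser2P and Ser5P at TPR2 was −49.3 bp with the peak of highest score and from −19.5 to 3390 bp when a replicate was left out.

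With the replicate block the position difference stayed 1308 bp at TPL and 1297 bp at TPR3, each with an exact sign-flip p of 0.25, and at no gene did the block change a call, as no test passed with or without it. Same-numbered H3K4me1 and H3K4me3 libraries correlated at 0.0576 to 0.0737, and differently numbered ones at −0.0397 to −0.021. The same-numbered values were weaker than for Ser2P and Ser5P, so it is not settled whether these libraries are paired. For sister genes without the block, the smallest exact permutation p was 0.10. Of the fold values under alternatives, 196 kept within the spread and 3 moved by more than the spread, all at TPR1 with the gene body alone. The motif alternative was not run.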

Other observations

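TBP regions were listed at the opposite end of 52.8% of the oriented genes and at the marked end of 37% of them. In the family 4 of 5 genes had one at the opposite end and 5 of 5 at the marked end. H2A.Z also had a peak beside the opposite end of TPR3 in all 3 libraries, with folds of 4.00, 3.26 and 3.14 and its summit more than 500 bp outside the gene, spanning 9507974 to 9508600 on chromosome 5. H2A.Z was thus the only feature with a peak near that end of TPR3 in all 3 libraries.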
